A study of Mus musculus with 12 samples.

Results

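The MAP kinase phosphatases are 10 genes of the DUSP family, Dusp1, Dusp2, Dusp4, Dusp5, Dusp6, Dusp7, Dusp8, Dusp9, Dusp10 and Dusp16, and their RNA was followed in whole cochleae of Dusp1 KO mice and of their WT counterparts. They were chosen by symbol, not by their values, and all 10 were among the 23911 genes whose FPKM (fragments per kilobase of transcript, scaled to the mapped fragments of a library) could be used, while 9 of the 10 reached the mean of 0.5 FPKM that a gene needed to enter the test. The 12 polyA RNA-seq libraries formed 4 groups of 3: Dusp1-/- at 5 months (E7, F18 and F19), Dusp1+/+ at 5 months (E1, E3 and E4), Dusp1-/- at 8 months (F5, F6 and F27) and Dusp1+/+ at 8 months (F1, F10 and F12). All mice shared the mixed strain 129S2/SvPas:C57BL/6, and the labels name no treatment. Each library carries the code of 1 animal, and males and females were studied together without a label of sex. Xist, a transcript of females, was 34.9 to 52.4 FPKM in E4, F1, F6 and F27, with Ddx3y, a Y chromosome gene, at 0 to 0.0131. In the others Xist was at most 0.0935 and Ddx3y at least 22.3. Read this way, the only female at 5 months was E4, in WT. Those at 8 months were F6 and F27 in KO and F1 in WT, so sex was not balanced between KO and WT. KO and WT stand here for the genotypes on the labels.

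MAP kinase phosphatases switch off the ERK, JNK and p38 kinases by removing the phosphates from the threonine and the tyrosine of the activation loop. Each has a preferred set of kinases and a preferred place in the cell: Dusp1, Dusp2, Dusp4 and Dusp5 encode nuclear enzymes whose genes are induced by the signals that they later terminate, Dusp6, Dusp7 and Dusp9 encode cytoplasmic enzymes that prefer ERK, and Dusp8, Dusp10 and Dusp16 encode enzymes that prefer JNK and p38. In the cochlea, JNK and p38 are best known for their part in the response of hair cells to noise and ototoxic drugs, and ERK for growth factor signalling.

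The total of all FPKM in a library lay between 501153 and 583700, and the depth of each library is unknown because FPKM hold no read numbers. Markers of the labelled tissue were present: all 16 genes of sensory epithelium and fluid spaces averaged over 0.5 FPKM. Markers of blood cells differed widely between libraries. The summed FPKM of 12 neutrophil genes spanned 4139 to 22876 in KO and 72.8 to 682 in WT at 5 months, and 895 to 16757 in KO and 689 to 4612 in WT at 8 months. The summed B cell markers spanned 34.4 to 151 in KO and 10.2 to 18.6 in WT at 5 months, and 24.1 to 49.4 in KO and 17.5 to 78.9 in WT at 8 months. Brain and brainstem markers were highest in E1, where their sum reached 212 FPKM. In bulk tissue, fewer cells of a type and less RNA per cell cannot be told apart.

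The promoters were searched for short motifs. Those of 5 members to which the results return are printed here as the 250 bases before the transcription start, taken from RefSeq on GRCm38.p6 and written from 5′ to 3′ on the strand of the gene. Of the 10 members, 8 had an entry. Capitals mark TGACGT on either strand (read as ACGTCA on the other), the core of the cyclic AMP response element, CACGTG, an E-box, and the CArG box that serum response factor binds, which is CC, then 6 bases of A or T, then GG.
Dusp1 (chr17:26508473-26508722, minus strand): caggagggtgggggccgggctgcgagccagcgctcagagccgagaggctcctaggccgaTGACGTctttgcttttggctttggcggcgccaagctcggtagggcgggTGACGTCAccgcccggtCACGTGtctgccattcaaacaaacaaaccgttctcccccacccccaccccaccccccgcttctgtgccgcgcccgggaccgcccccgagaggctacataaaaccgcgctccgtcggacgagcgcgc
Dusp2 (chr2:127335909-127336158, plus strand): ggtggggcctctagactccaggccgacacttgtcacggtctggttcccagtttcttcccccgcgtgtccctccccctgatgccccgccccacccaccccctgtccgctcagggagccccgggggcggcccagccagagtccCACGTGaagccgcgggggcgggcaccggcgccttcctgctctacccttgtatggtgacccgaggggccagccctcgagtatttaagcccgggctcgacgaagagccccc
Dusp5 (chr19:53528895-53529144, plus strand): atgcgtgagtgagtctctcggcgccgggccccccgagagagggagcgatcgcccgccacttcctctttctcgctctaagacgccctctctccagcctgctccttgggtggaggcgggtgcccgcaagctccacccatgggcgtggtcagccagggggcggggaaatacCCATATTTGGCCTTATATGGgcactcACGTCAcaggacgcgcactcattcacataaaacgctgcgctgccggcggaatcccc
Dusp6 (chr10:99262981-99263230, plus strand): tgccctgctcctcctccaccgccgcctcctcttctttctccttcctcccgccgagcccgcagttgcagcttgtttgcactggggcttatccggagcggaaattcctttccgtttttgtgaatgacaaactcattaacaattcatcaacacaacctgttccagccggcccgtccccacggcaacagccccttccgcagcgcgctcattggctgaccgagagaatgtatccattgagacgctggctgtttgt
Dusp8 (chr7:142095285-142095534, minus strand): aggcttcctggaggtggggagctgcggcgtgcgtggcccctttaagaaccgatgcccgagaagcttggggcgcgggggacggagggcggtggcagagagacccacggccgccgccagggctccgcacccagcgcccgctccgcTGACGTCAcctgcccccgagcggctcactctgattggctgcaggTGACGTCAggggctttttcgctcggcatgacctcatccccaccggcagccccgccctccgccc
Searched on both strands, TGACGT was present in the promoters of Dusp1, Dusp5 and Dusp8 and in 6.47% of all 32851 promoters of that length. The full palindrome TGACGTCA, which contains TGACGT on each strand, was present in Dusp1, 143 bases before the start, and in Dusp8, 107 and 63 bases before it, against 1.55% of all promoters. CACGTG was found in Dusp1 and Dusp2 and in 6.02% of promoters. A CArG box was found only in Dusp5 among the 8, with matches 82 and 72 bases before the start, against 1.47% of promoters. Dusp6 held none of these, but held CCAAT, as did Dusp7, Dusp8, Dusp10 and Dusp16, against 33.8% of promoters. TATAAA was in none of the 8 and in 12.4% of promoters. These are matches of letters, and no binding was measured.

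FPKM are per length, so the members can be ordered by level. Over the 12 libraries the mean level was 55.2 FPKM for Dusp1, 21.2 for Dusp6, 13.4 for Dusp7, 12.7 for Dusp16, 9.04 for Dusp8, 6.56 for Dusp4, 4.2 for Dusp10, 3.66 for Dusp5, 1.46 for Dusp2 and 0.102 for Dusp9. Dusp1 stood above 93.1% of all genes, and Dusp9 above 25.0%. Of the 9 pairs of neighbours in this order, 7 differed within libraries (exact sign-flip test of the mean log2 ratio over 12 libraries, two-sided, p from 0.000488, the smallest possible, to 0.0103, unadjusted). Dusp7 and Dusp16 did not differ beyond their spread (Dusp7 higher in 8 of 12 libraries, exact p = 0.0991), nor did Dusp10 and Dusp5 (Dusp10 higher in 10 of 12, exact p = 0.0801). The model of Dusp5 in the mm9 annotation used by the authors holds 1155 exonic bases of which 1152 are coding, so its level rests on the coding part, and Mir3084, Mir3084-2 and Snora19 overlap the gene on the opposite strand.

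**Figure D1:**
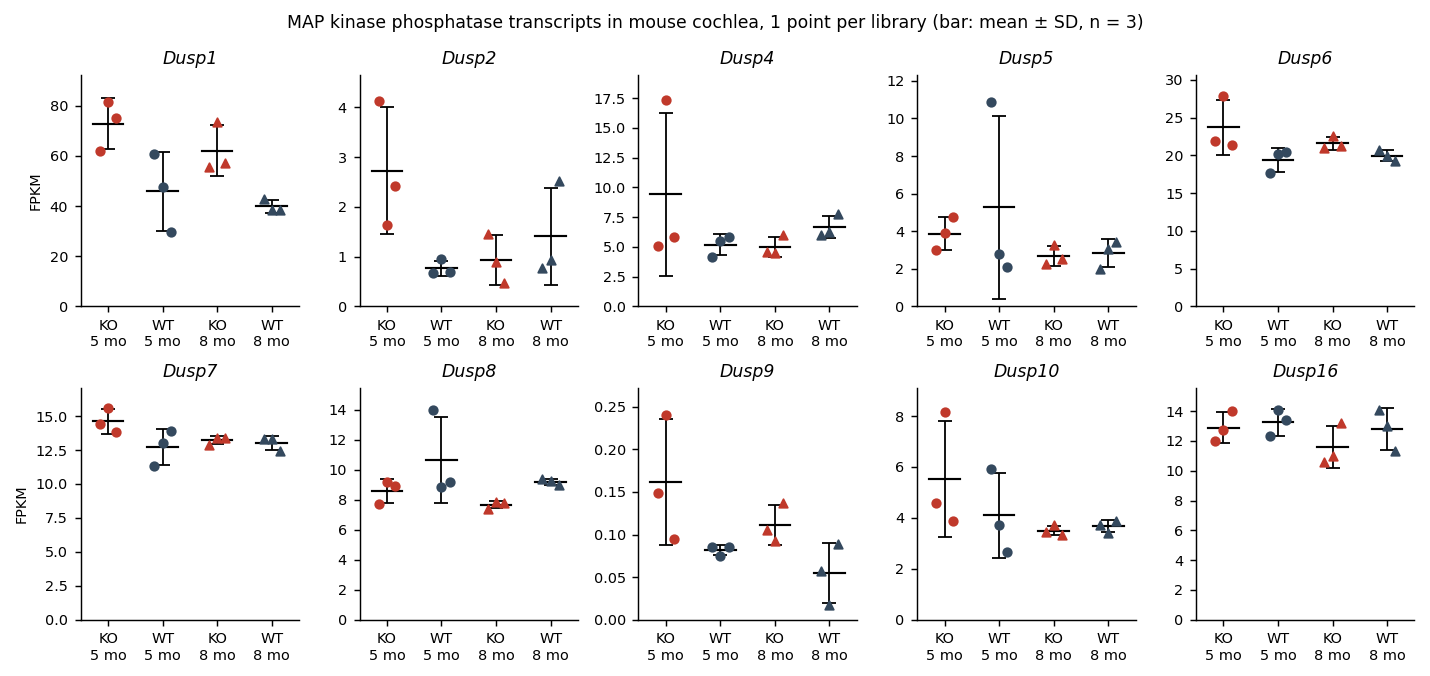
FPKM of each of the 10 MAP kinase phosphatase genes in each library, on a linear axis from 0 in each panel, with KO to the left of WT at 5 and at 8 months; points are libraries, and bars show the mean and SD of a group (n = 3). The 6 libraries labelled KO lie above the 6 labelled WT for Dusp6 and for Dusp9, while Dusp4 and Dusp5 each have 1 library, F18 and E1, far above the rest.

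No member passed the adjusted threshold of 0.05 in any contrast (limma on log2(FPKM + 0.5), 1 fit of all 12 libraries, Benjamini-Hochberg over 16267 genes). This count of 0 of 9 stands beside a background that was itself low: 0.0676% of all genes passed for KO against WT at 5 months, 0.0123% at 8 months and 0.0799% averaged over ages. At an unadjusted p under 0.05, 4 of 9 members were higher in KO at 5 months, against 8.24% of all genes, and none was lower, against 9.93%. These were Dusp1, Dusp2, Dusp6 and Dusp7. The count was 2, Dusp1 and Dusp2, without F18, in a fit of the compared groups alone or with array weights. With the letter of the animal code as a covariate it was 1, Dusp2. Every WT library at 5 months carries E and every library at 8 months carries F. The effect of the letter therefore rests on E7 against F18 and F19 alone, and it cannot change a difference at 8 months. Other omissions changed which members these were: Dusp1, Dusp2, Dusp5 and Dusp10 without E1, and Dusp1, Dusp2, Dusp4 and Dusp6 without E7. Dusp8 was lower at such a p without E3 or without E4. At 8 months 1 member was higher, against 2.21% of genes, and none lower, against 2.97%, and averaged over ages 2 were higher and 1 lower, against 7.75% and 9.66%. The 1 member at 8 months, Dusp1, was not below that p without F6, F10 or F12. The averaged lower member, Dusp8, was not without E7, F5, F1 or F10 in turn, and Dusp6 was not without E1 or with the code letter. At 8 months Dusp4 was lower at such a p without F18, Dusp8 without E1, and both in a fit of the compared groups alone. Averaged over ages, the exact permutation test within each age gave an unadjusted p under 0.05 for 4 of 10 members, Dusp1, Dusp6, Dusp8 and Dusp9, among 50 such tests of single members. Of the 9 members above the filter this was 2 higher and 1 lower in KO, where the same test gave 5.45% of all genes higher and 9.65% lower. At 5 months 3 of the 9, Dusp1, Dusp2 and Dusp6, had every KO library above every WT library, against 11.3% of genes, and at 8 months 2, Dusp1 and Dusp6, did so, against 4.11%. Every KO library lay below every WT library for no member at 5 months, against 13.8% of genes. At 8 months this held for 2, Dusp4 and Dusp8, against 6.18%. Separation with KO above WT at both ages held for 0.805% of genes, and with KO below WT for 2.01% of genes and no member. At a single age the exact permutation test of 3 libraries against 3 cannot give a p below 0.1. The median log2 difference of the 9 members was 0.27 at 5 months, -0.058 at 8 months and 0.11 averaged, where the medians of all genes tested were -0.027, -0.0040 and -0.016.

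Dusp1 is the gene that the KO targets, and its RNA was higher in the libraries labelled KO. It measured 61.9, 81.5 and 75.3 FPKM in KO, against 60.8, 47.6 and 29.5 in WT at 5 months, and 55.6, 73.7 and 57.1 in KO, against 43.0, 38.3 and 38.6 in WT at 8 months. At each age every KO library lay above every WT library, at 5 months by the narrow gap between E7 and E1. The log2 difference was 0.71 ± 0.23 at 5 months (SE, unadjusted p = 0.0101, limma adjusted p = 0.198), 0.62 ± 0.23 at 8 months (adjusted p = 0.940) and 0.67 ± 0.16 averaged (adjusted p = 0.130). The averaged exact permutation p was 0.005, the smallest that 400 arrangements can give. The summed neutrophil markers correlated with Dusp1 at r = 0.55 over the 12 libraries and at 0.12 after each group was centred on its mean, and their part in its difference was not tested. Without E4, the WT library with the least Dusp1, the difference at 5 months was 0.42, and without E1 it was 0.94. With the level of Xist as a covariate it was 0.65.

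The direction of the targeted gene therefore goes against a loss of its RNA, and the directions given here rest on the labels of the libraries. The deposited value is a single FPKM for the whole gene (mm9, chr17:26642536-26645417, minus strand, 4 exons of 1942 bases in all). It cannot show which exons the reads came from. The sources used here do not give the design of the allele, and neither transcript nor protein of an intact Dusp1 can be read from these values. Dusp1 made up 47.3% of the summed FPKM of the 10 members in KO and 38.3% in WT at 5 months, and 48.2% in KO and 36.4% in WT at 8 months. The sum of the other 9 was 81.5 ± 13.1 FPKM in KO and 71.5 ± 4.81 in WT at 5 months, and 66.3 ± 2.25 in KO and 69.6 ± 0.506 in WT at 8 months (SD, n = 3 each).

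**Figure D2:**
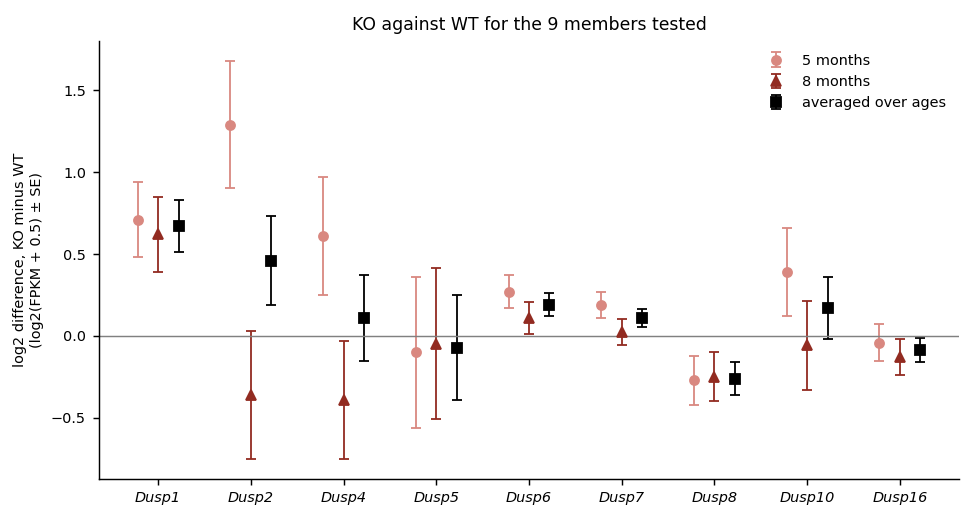
Log2 difference of KO against WT for the tested members at 5 months, at 8 months and averaged over ages, on log2(FPKM + 0.5), with bars of 1 SE from limma. Dusp1 lies above 0 at both ages, Dusp2 is at 1.29 at 5 months and -0.36 at 8 months, and Dusp8 lies below 0 at both ages; no value passed the adjusted threshold.

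Dusp2, a nuclear phosphatase known from activated lymphocytes and other blood cells, had the largest difference of any member at 5 months. It measured 4.13, 1.64 and 2.42 FPKM in KO, against 0.664, 0.946 and 0.685 in WT at 5 months, with no overlap. At 8 months it measured 1.45, 0.890 and 0.460 in KO, against 0.772, 0.924 and 2.53 in WT, where the groups overlapped and WT held the highest library, F12. On the log2 scale KO and WT differed by 1.29 ± 0.39 at 5 months (unadjusted p = 0.00767, adjusted p = 0.191) and -0.36 ± 0.39 at 8 months (adjusted p = 0.979). The difference between the ages was -1.65 ± 0.55, 8 minus 5 months (unadjusted p = 0.0132, adjusted p = 0.877), the only member at an unadjusted p under 0.05 in that contrast. In it 1.65% of genes were lower and 3.02% higher at such a p (4.67% in all), and 0.00615% of genes passed the adjusted threshold. Without F12 the value at 8 months was 0.032, and without E7 the value at 5 months was 0.99.

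Dusp2 correlated with blood cell genes across libraries. Among the genes with the highest Pearson correlation to it over the 12 libraries were Spib, a transcription factor of B cells (r = 0.98, rho = 0.96), and Blk, a B cell tyrosine kinase (r = 0.97). For Spib, r was 0.97 after each group was centred on its mean and 0.97 without E7 and F19, the libraries farthest from the median. Spib measured 16.8, 2.83 and 9.91 FPKM in KO, against 0.654, 1.0 and 0.403 in WT at 5 months, and 3.0, 0.991 and 0.518 in KO, against 0.835, 1.06 and 5.9 in WT at 8 months. The 5 libraries with the most Spib, E7, F19, F12, F5 and F18, were also the 5 with the most Dusp2. All 10 B cell markers correlated with Dusp2 at r over 0.5 (median 0.94), and so did all 8 red cell markers (median 0.86), all 12 neutrophil markers (median 0.79) and all 6 platelet markers (median 0.79). Only 5 of 9 markers of T and NK cells did so (median 0.64), and 4 of 10 macrophage markers (median 0.42). Of all 16266 other genes 13.0% did so, and their median was -0.079. The part of blood cells in the Dusp2 difference was not tested.

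Dusp4, a nuclear phosphatase of ERK and JNK, had 1 high library in KO at 5 months. It measured 5.08, 17.3 and 5.85 FPKM in KO, against 4.18, 5.52 and 5.82 in WT at 5 months, and F18 was 3.16 times the mean of the other 2 KO libraries. At 8 months it measured 4.54, 4.46 and 5.97 in KO, against 5.98, 6.28 and 7.76 in WT. Every KO library then lay below every WT library, F27 by a narrow margin, as held for 6.18% of genes. On the log2 scale the fitted difference was 0.61 ± 0.36 at 5 months (adjusted p = 0.401), 0.083 without F18, and -0.39 ± 0.36 at 8 months (adjusted p = 0.978). The nearest patterns were those of Dbt, an enzyme of branched-chain amino acid breakdown (r = 0.94), Mir5136 (r = 0.94) and Dnajc28 (r = 0.93), all highest in F18. Without F18 and F12 the correlation with Mir5136, a short RNA gene listed at 0 in its lowest library, was 0.22, while that with Dbt without F18 and F1 was 0.81.

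Dusp5, a nuclear phosphatase specific for ERK, was likewise set apart by 1 library, in this case one labelled WT. It measured 2.98, 3.88 and 4.75 FPKM in KO, against 10.9, 2.79 and 2.12 in WT at 5 months, and 2.24, 3.28 and 2.54 in KO, against 2.00, 3.04 and 3.44 in WT at 8 months. E1 was 4.44 times the mean of the other 2 WT libraries of its age, and the groups overlapped at both ages. On the log2 scale the difference was -0.10 ± 0.46 at 5 months and -0.047 ± 0.46 at 8 months (adjusted p = 0.934 and 1.00). Without E1 the value at 5 months was 0.55, with an unadjusted p of 0.0484 and an adjusted p of 0.416. Without E7 it was 0.056, so that the direction of Dusp5 at 5 months turned when either library was left out.

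The gene closest to Dusp5 was Fos, the immediate early transcription factor whose promoter is a textbook target of serum response factor, the factor of the CArG box (r = 0.91, rho = 0.66). Fos measured 5.01, 6.67 and 6.86 FPKM in KO, against 33.9, 6.76 and 4.46 in WT at 5 months, and 4.67, 4.75 and 4.30 in KO, against 3.15, 4.46 and 3.79 in WT at 8 months. E1 was the highest library for both genes. Without E1 and F1 the correlation was 0.51. The next genes, Sbk1, a kinase (r = 0.90), and Ttpa, the alpha-tocopherol transfer protein (r = 0.90), were also highest in E1.

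**Figure D3:**
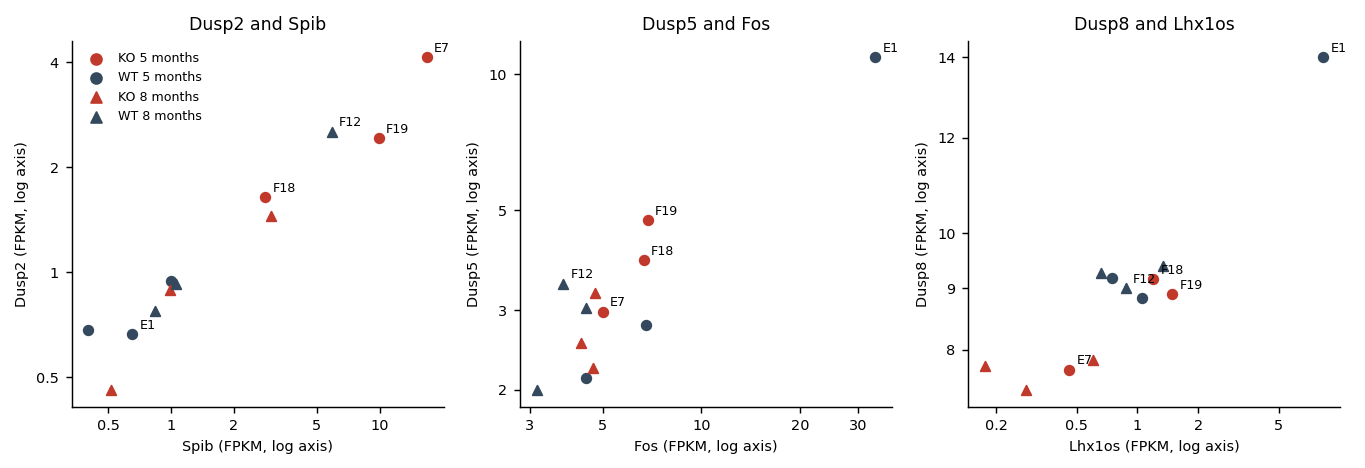
FPKM of 3 members against FPKM of a gene with a like pattern, both on log axes, 1 point per library. Dusp2 and Spib lie along 1 line over all groups (r = 0.98), while the relation of Dusp5 and Fos (r = 0.91, and 0.51 without E1 and F1) extends furthest at E1.

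Among the cytoplasmic phosphatases, Dusp6, which removes phosphate from ERK and is itself an ERK target gene, was separated completely by genotype. It measured 21.9, 27.9 and 21.3 FPKM in KO, against 17.6, 20.2 and 20.5 in WT at 5 months, and 21, 22.5 and 21.2 in KO, against 20.7, 19.9 and 19.3 in WT at 8 months. All 6 KO libraries lay above all 6 WT libraries, by the narrow gap between F5 in KO and F1 in WT. Such a separation held for 0.289% of the genes tested. The log2 difference was 0.27 ± 0.10 at 5 months (unadjusted p = 0.0210, adjusted p = 0.221), 0.11 ± 0.10 at 8 months (adjusted p = 0.978) and 0.19 ± 0.070 averaged (adjusted p = 0.239). The averaged exact permutation p was 0.005, the smallest possible, which complete separation within each age always gives. At 5 months the log2 difference was 0.15 without F18, the highest library, 0.20 without E1 and 0.17 with the code letter as a covariate. The unadjusted limma p was then 0.0753, 0.0859 and 0.253. Relative to the WT mean, the KO mean was higher by 21.8% at 5 months and 7.99% at 8 months.

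Dusp7, the relative of Dusp6 with the same preference for ERK, measured 14.4, 15.6 and 13.8 FPKM in KO, against 11.3, 13.0 and 13.9 in WT at 5 months, and 12.9, 13.4 and 13.4 in KO, against 13.3, 13.3 and 12.4 in WT at 8 months. The groups overlapped at both ages. The log2 difference was 0.19 ± 0.079 at 5 months (unadjusted p = 0.0352, adjusted p = 0.245) and 0.026 at 8 months, and the averaged exact permutation p was 0.0600. The gene with the pattern most like that of Dusp7 over the whole table was Dusp6 (r = 0.89, rho = 0.80, and 0.62 without E1 and F18), followed by Aste1 (r = 0.89) and Mavs, the mitochondrial antiviral adaptor (r = 0.87). Dusp6 itself lay closest to Pxmp4, a peroxisomal membrane protein (r = 0.91), Pfkfb3, a regulator of glycolysis (r = 0.91), and Il15ra, a cytokine receptor chain (r = 0.89). F18 was the highest and E1 the lowest library for each of these genes. Without E1 and F18 the correlations of Dusp6 with Pxmp4, Pfkfb3 and Il15ra were 0.51, 0.38 and 0.59. Without E1 the difference of Dusp7 at 5 months was 0.11.

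Dusp9, best known from placenta, was at the edge of detection. It measured 0.149, 0.241 and 0.0945 FPKM in KO, against 0.0855, 0.0749 and 0.0851 in WT at 5 months, and 0.105, 0.0919 and 0.137 in KO, against 0.0576, 0.0178 and 0.0888 in WT at 8 months. All 6 KO libraries again lay above all 6 WT libraries, by a narrow gap, and the averaged exact permutation p was 0.005, again the smallest possible. With quantile scaling of the libraries this p was 0.320. Levels this low cannot be weighed against counting error, since the read numbers are unknown, and Dusp9 was below the filter of the limma fit.

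Of the phosphatases of JNK and p38, Dusp8, an enzyme prominent in brain and heart, had lower mean levels in KO at both ages. It measured 7.70, 9.16 and 8.90 FPKM in KO, against 14, 8.83 and 9.18 in WT at 5 months, and 7.41, 7.84 and 7.76 in KO, against 9.40, 9.26 and 9 in WT at 8 months. At 8 months every KO library lay below every WT library, as for Dusp4, and 6.18% of genes did so. At 5 months the groups overlapped and E1 stood above the rest. On the log2 scale it differed by -0.27 ± 0.15 at 5 months (adjusted p = 0.351), -0.25 ± 0.15 at 8 months (adjusted p = 0.963) and -0.26 ± 0.10 averaged (unadjusted p = 0.0295, adjusted p = 0.253), with an averaged exact permutation p of 0.0200. Without E1 the value at 5 months was -0.068. Without E7 and F5, the KO libraries with the most neutrophil RNA, the averaged exact p was 0.140.

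Dusp8 correlated with markers of brain and brainstem. Closest to it were Aldh5a1, an enzyme of GABA breakdown (r = 0.95), the long non-coding RNA gene Lhx1os (r = 0.95) and Frmd5 (r = 0.95). Lhx1os measured 0.459, 1.2 and 1.49 FPKM in KO, against 8.34, 1.05 and 0.751 in WT at 5 months, and 0.282, 0.603 and 0.176 in KO, against 1.34, 0.658 and 0.874 in WT at 8 months. E1 was the highest library for all 3 and for Dusp8, and without E1 and the second farthest library the correlations were 0.82, 0.78 and 0.76. Of 9 markers of brain and brainstem, 7 correlated with Dusp8 at r over 0.5 (median 0.62), as did 14.8% of all other genes, whose median was -0.0096. The part of brain or brainstem RNA in the Dusp8 values was not tested.

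Neither Dusp10 nor Dusp16, which also prefer JNK and p38, had an unadjusted p under 0.05 with all 12 libraries. Dusp10 measured 4.57, 8.15 and 3.89 FPKM in KO, against 5.93, 3.72 and 2.65 in WT at 5 months, and 3.46, 3.71 and 3.34 in KO, against 3.73, 3.41 and 3.87 in WT at 8 months. F18 and E1 were the high libraries of their groups, and without F18 the log2 difference at 5 months of 0.39 ± 0.27 (adjusted p = 0.477) was 0.10. Without E1 it was 0.66 (limma, unadjusted p = 0.0271, adjusted p = 0.406). Dusp16 measured 12, 12.7 and 14 FPKM in KO, against 12.3, 14.1 and 13.4 in WT at 5 months, and 10.6, 11 and 13.2 in KO, against 14.1, 13.0 and 11.3 in WT at 8 months. Its log2 difference was -0.040 ± 0.11 at 5 months and -0.13 ± 0.11 at 8 months (adjusted p = 0.875 and 0.973), and the groups overlapped at both ages. Nearest to Dusp10 were Slc25a44, a carrier of branched-chain amino acids (r = 0.90), Atl2, a GTPase of the endoplasmic reticulum (r = 0.87), and Tbrg4 (r = 0.86). These leaned on single libraries: without the 2 farthest, F18 among them each time, they were 0.42, 0.60 and 0.40. Nearest to Dusp16 were Hhip, which binds hedgehog ligands, Mitf, the transcription factor of melanocytes, and Bmpr1a, a receptor of bone morphogenetic proteins, each with r = 0.93 and each lowest in F5. Without the 2 farthest libraries these correlations were 0.85 to 0.89.

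**Figure D4:**
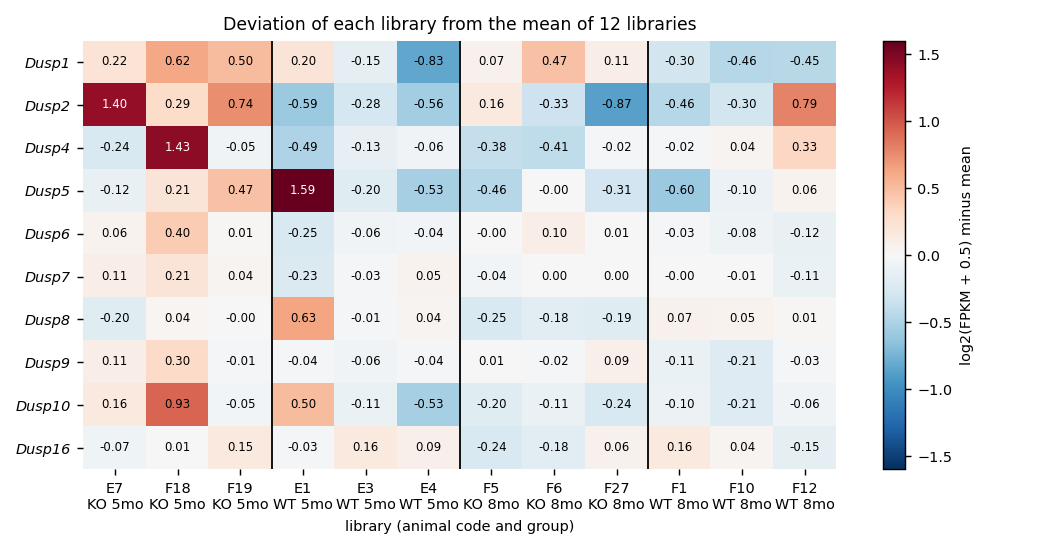
Deviation of each member from its mean over the 12 libraries, on log2(FPKM + 0.5), for each library, with KO before WT at each age. F18 is the highest library for 6 of the 10 members and E1 is the highest for Dusp5 and Dusp8 and the lowest for Dusp4, Dusp6 and Dusp7.

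The extreme values of several members fell in the same few libraries. F18 was highest of the 12 for Dusp1, Dusp4, Dusp6, Dusp7, Dusp9 and Dusp10. E1 was highest for Dusp5 and Dusp8 and lowest for Dusp4, Dusp6 and Dusp7. Correlations between members leaned on both: Dusp5 and Dusp8 gave r = 0.77 over the 12 libraries but -0.055 without E1 and F5, and Dusp4 and Dusp6 gave 0.71 but -0.80 without E1 and F18. Dusp1 and Dusp10 gave 0.64, and 0.60 without E1 and F18.

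Dusp1 itself lay closest to Utp18, a protein of ribosomal RNA processing (r = 0.90, rho = 0.96), Reg3g, an antibacterial lectin (r = 0.83), the small nucleolar RNA Snord22, listed at 0 in its lowest library (r = 0.80), Fkbp5, a chaperone induced by glucocorticoids (r = 0.79), and Adamts13, the protease of von Willebrand factor (r = 0.78). With each group centred on its mean, r was 0.76 for Utp18, 0.87 for Reg3g and for Snord22, 0.42 for Fkbp5 and 0.38 for Adamts13. Fkbp5 lies 1.94 Mb from Dusp1 on chromosome 17 in mm9. Of 25 immediate early genes, the class to which Dusp1 belongs, 23 correlated with it at r over 0 and 6 at r over 0.5 (median 0.34), and of 14 glucocorticoid response genes 13 did so at r over 0 (median 0.37). Over all other genes 42.6% were over 0 and 2.30% over 0.5, and the median was -0.063. The medians were as high for several lists of other cell types, at 0.47 for neutrophils (12 of 12 over 0), 0.45 for red cells (8 of 8), 0.43 for platelets (6 of 6), 0.38 for B cells (10 of 10) and 0.36 for skeletal muscle (7 of 7), but 0.10 for macrophages and -0.073 for T and NK cells. After each group was centred on its mean, the median was 0.24 for the immediate early genes, which ran from -0.54 to 0.81, and 0.055 for the glucocorticoid response genes, which ran from -0.62 to 0.42. So centred, the medians lay at -0.052 for neutrophils, 0.044 for red cells, -0.27 for platelets, -0.13 for B cells and 0.17 for muscle. For macrophages the centred median was -0.43, for T and NK cells -0.36, and over all other genes -0.044.

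With age, no member passed the adjusted threshold within WT, where 0.0123% of genes did, or within KO, where 0% did. Between 8 and 5 months in KO, the log2 difference was negative for all 9 members, while it was positive for 53.2% of all genes. The median was -0.23, against 0.015 over all genes. F18, a KO library at 5 months, was the highest library for 6 members, Dusp1, Dusp4, Dusp6, Dusp7, Dusp9 and Dusp10. The 9 signs are therefore not independent of each other. In KO, 3 members, Dusp2, Dusp7 and Dusp10, were lower at 8 months in every library, against 4.58% of genes. None was higher in every library, against 11.1%. In the limma fit Dusp2 alone had an unadjusted p under 0.05 (-1.16 ± 0.39, adjusted p = 0.335), against 3.76% of genes lower and 8.85% higher (12.6% in all). Dusp7 differed by -0.13 ± 0.079 and Dusp10 by -0.53 ± 0.27, and without F18 the value of Dusp10 was -0.24. Between 8 and 5 months in WT, no member had an unadjusted p under 0.05, against 4.28% of genes higher and 3.56% lower (7.84% in all). Dusp4 alone was higher at 8 months in every WT library (0.34 ± 0.36), against 10.4% of genes, and no member was lower in every library, against 8.82%. In WT every animal code began with E at 5 months and with F at 8 months, so age and letter cannot be told apart there. The contrasts of age share libraries with those of KO against WT.

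Beside the members, 8 lists with 127 genes tested were read. They held the kinases that these phosphatases act on, their activators and their targets. Immediate early genes, glucocorticoid response genes and other phosphatases were also among them. None of the 127 passed the adjusted threshold in any of the contrasts of KO against WT, and 34 had an unadjusted p under 0.05 at 5 months, 8 at 8 months and 28 averaged, against 18.2, 5.18 and 17.4% of all genes. Of 12 kinases of the ERK, JNK and p38 families, 3 were lower and 1 higher in KO at an unadjusted p under 0.05 averaged over ages, where 9.66% of all genes were lower and 7.75% higher. Mapk10, the JNK of neurons, averaged 18.5 FPKM in KO and 24.6 in WT at 5 months and 18.9 in KO and 22 in WT at 8 months (averaged log2 difference -0.31 ± 0.063, adjusted p = 0.117). Mapk8, the ubiquitous JNK, differed by -0.24 ± 0.061 (adjusted p = 0.154). Of 24 MAP2K and MAP3K genes 6 were lower and 2 higher, with Map3k7, a kinase downstream of cytokine receptors, at -0.27 ± 0.053 (adjusted p = 0.10) and Map3k6 at 0.41 ± 0.12 (adjusted p = 0.181). The list medians, -0.0028 and -0.028, were near that of all genes, -0.016.

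The same shares of all genes, 7.75% higher and 9.66% lower averaged over ages, stand beside the counts of the lists that follow. Among targets, the 14 tested genes of ERK feedback had a median of -0.056, with 2 higher and 1 lower, Ccnd1, a cyclin, at 0.17 ± 0.055 and Spred1, an inhibitor of the pathway, at -0.13 ± 0.044 (adjusted p = 0.214 and 0.228). Of 13 substrates of p38 and JNK 4 were higher and none lower (median 0.037), led by Mapkapk2 at 0.24 ± 0.077 and Mknk2 at 0.33 ± 0.11 (adjusted p = 0.214 each). Of 25 immediate early genes 3 were higher and none lower averaged over ages (median 0.073), and 7 were higher at 5 months (median 0.14), against 8.24% of all genes. Zfp36, which speeds the decay of cytokine mRNAs, averaged 32.5 FPKM in KO and 24.9 in WT at 5 months (averaged log2 difference 0.26 ± 0.069, adjusted p = 0.162), and Ier2 differed by 0.31 ± 0.11 (adjusted p = 0.229).

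The glucocorticoid response genes had the highest median of the 8 lists, 0.27, with 13 of 14 positive, against 45.7% of all genes, and with 3 higher and 1 lower by the unadjusted p, against 7.75% and 9.66%. The lists were written with earlier results of these data known, so this rank is a description and no independent test. Fkbp5 averaged 20.5 FPKM in KO and 12.6 in WT at 5 months and 16.5 in KO and 9.54 in WT at 8 months (averaged log2 difference 0.70 ± 0.17, adjusted p = 0.130). It lies 1.94 Mb from Dusp1 on chromosome 17, and the part of this nearness in its difference was not tested. Per1, a clock gene that glucocorticoids induce, averaged 32.6 FPKM in KO and 29.1 in WT at 5 months and 32.6 in KO and 20.5 in WT at 8 months (0.41 ± 0.093, adjusted p = 0.125). The 17 other dual-specificity phosphatases had a median of -0.040, with none higher and 1 lower, Dusp19 at -0.17 ± 0.068 (adjusted p = 0.255). Dusp11, which removes phosphates from RNA, was at -0.14 ± 0.066 (adjusted p = 0.293). Of 8 MAP kinase phosphatases from other families, Ptpn7, a tyrosine phosphatase of leukocytes, averaged 4.74 FPKM in KO and 0.651 in WT at 5 months and 2.95 in KO and 1.45 in WT at 8 months (1.22 ± 0.47, adjusted p = 0.246), while Ppm1b was at -0.10 ± 0.047 (adjusted p = 0.297). The summed markers of T and NK cells spanned 16.3 to 49.0 FPKM in KO and 9.97 to 11.5 in WT at 5 months, and their part in the Ptpn7 difference was not tested.

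**Figure D5:**
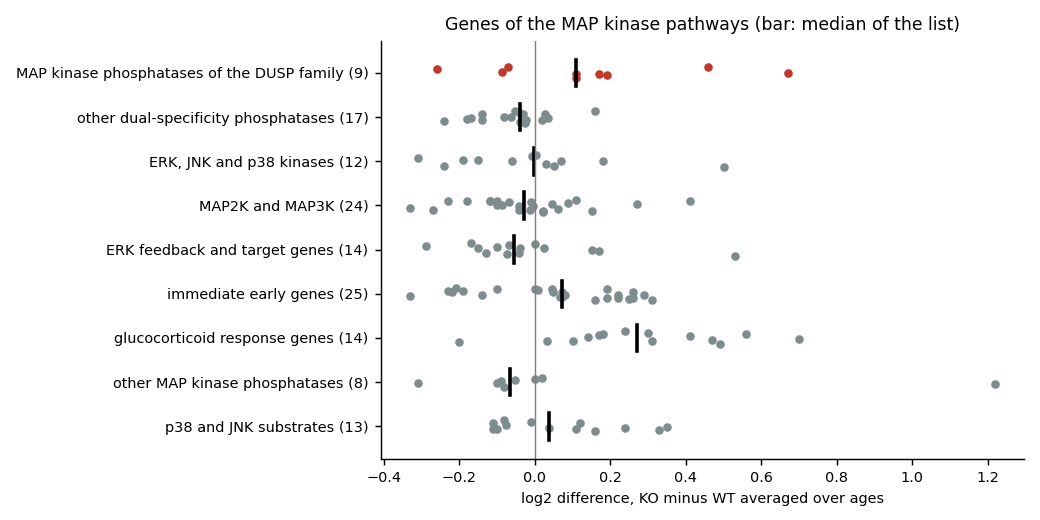
Log2 difference of KO against WT averaged over ages for each tested gene of the 8 pathway lists, with the list median as a bar and the members beside them. The medians lie between -0.067 and 0.27, the highest being that of the glucocorticoid response genes, and no gene passed the adjusted threshold.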

How the data were processed

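RNA of whole cochleae was read by the authors from stranded polyA libraries. Per the labels, reads were checked with FastQC 0.10.1 and aligned to mm9 with TopHat2 2.0.10, Bowtie 1.0.0 and SAMtools 0.1.19, and Cufflinks 2.2.1 gave FPKM per gene and library, the unit of the deposited table. The sources used here do not say whether counting used strand. Many deposited values had lost their decimal point. It was put back per gene and group so that the 3 values average to the authors' own FPKM of that group, to within a relative 2e-05. This changed 55.32% of values and left 23911 of 23951 genes, all 10 members among them. The fold changes and p-values of the authors' Cuffdiff and gene set comparisons were not used.

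Values were taken as log2(FPKM + 0.5) without further scaling. The 16267 genes whose mean reached 0.5 FPKM entered 1 fit of 4 groups in limma 3.58.1 (R 4.3.3) with a variance trend, and Benjamini-Hochberg adjustment ran over all genes, with a threshold of 0.05. Limma was tested on simulated data. Single members had exact two-sided permutation tests, with labels exchanged within an age, and levels of neighbours exact sign-flip tests. Tables, correlations of log2 values and figures used Python 3.11.15, NumPy 2.4.6, SciPy 1.17.1 and Matplotlib 3.10.9. All members are named; other genes are the 3 (5 for Dusp1) with the highest Pearson r to a member, and the 2 of each pathway list with the smallest p averaged over ages, and 1 gene that this rule names for Dusp2 is not reported here. The members and lists were chosen with earlier results of these data known. Promoter sequences came from RefSeq on GRCm38.p6, a build other than that of the files, and were matched by symbol. Alternatives were other pseudocounts, filters, scalings, covariates and weights, no variance trend, the compared groups alone, and libraries left out.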

Additional observations from a re-analysis of the deposited data

How the results depend on the processing

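No member and no pathway gene passed the adjusted threshold under any alternative run, in any contrast of KO against WT. These were a pseudocount of 0.1 or 1, no filter or one at 1 FPKM, scaling by quantiles or by median ratios, weights for libraries (array weights), a fit with no variance trend or of the compared groups alone, a covariate (the letter of the animal code, or the level of Xist), E7 and F5 left out together, and each library left out. The compared groups alone give no value for the contrast averaged over ages or for the difference between ages. No paired analysis was possible because the groups share no replicate numbers, only animal codes. Dusp1 kept its direction throughout, at 0.49 to 0.82 at 5 months under the alternatives and 0.42 to 0.94 with a library left out. Among values of single genes, 1212 kept direction and side of the threshold, 33 changed direction, 2 no longer had and 1 newly had an exact p under 0.05, and the cause was not tested.

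At 5 months Dusp4 was -0.01 with the code letter. Dusp5 was 0.19 with array weights, 0.056 without E7 and F5, and -0.51 to 0.55 with a library left out. Dusp16 was 0.0086 with Xist, 0.0095 without E7 and F5, and -0.1 to 0.0095 with a library left out. At 8 months Dusp2 ranged over -0.61 to 0.032 with a library left out. Dusp5 was 0.11 with Xist, 0.055 without E7 and F5, and -0.24 to 0.088 with a library left out. Dusp7 was -0.0039 with Xist and -0.0082 to 0.044 with a library left out. Dusp10 was 0.015 with Xist. Averaged over ages Dusp4 was -0.087 with array weights, -0.20 with the code letter and -0.15 to 0.27 with a library left out. Dusp5 was 0.024 with array weights, 0.055 without E7 and F5, and -0.28 to 0.25 with a library left out. The age difference of Dusp1, -0.09, was 0.13 with the code letter, 0.023 with Xist and -0.32 to 0.20 with a library left out. Within WT, Dusp4 was -0.59 with the code letter. In WT the letter is E at 5 months and F at 8 months, so it cannot be told apart from age. Its effect was taken from the KO libraries E7, F18 and F19, so the value is no check of the WT difference. The averaged exact p was 0.320 for Dusp9 with quantile scaling (log2 difference 0.10), 0.140 for Dusp8 without E7 and F5 (-0.21) and 0.0400 for Dusp7 without E4 (0.14). The order of levels was the same under the other pseudocounts, median ratio scaling and every omission of libraries, with 7 pairs of neighbours separated, and 7 or 8 with a library left out. With unknown depth, counting error cannot be given for any level.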
